A study of Mus musculus with 16 samples.

Results

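The genes described here are the mouse major histocompatibility complex (MHC) genes and the genes that load, process or control MHC molecules. They were chosen by name: every protein-coding gene of the count table whose symbol begins with H2-, together with B2m, Cd74, Ciita, Nlrc5, Tap1, Tap2, Tapbp, Psmb8, Psmb9 and Psmb10. This gave 44 genes of 55487 in the table. Of these, 32 belong to class I (24 heavy chains and 8 genes of the class I machinery) and 11 to class II (4 chains and 7 accessory genes). The last one, H2-Ke6, carries the H2 name by position and encodes a steroid dehydrogenase. By the GENCODE annotation of GRCm38, 39 of the 44 lie on chromosome 17, 2 on chromosome 8, and 1 each on chromosomes 2, 16 and 18.

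RNA was sequenced from 16 cultures of mouse mammary organoids, which are clusters of primary cells grown in a gel with growth factors. The WT group (n = 3) came from normal breast, and the 3 mutant groups came from breast tumors, 4 cultures with the PIK3CA allele, 4 with the HER2 allele and 5 with both (the double mutant). Per the series title, the alleles are HER2 V777L and PIK3CA H1047R, both activating changes found in human breast cancer. All 16 cultures were given the same medium, with epidermal growth factor and conditioned medium holding R-spondin and Noggin. The age and strain of the mice, and the promoter or Cre driver behind the alleles, are not given in the sources used here. Because every WT culture came from normal tissue and every mutant culture from a tumor, mutation and tissue source cannot be told apart in the comparisons with WT. The labels number the cultures but do not say whether they came from separate mice, so the p-values measure the spread between these cultures, which may be partly technical.

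Class I molecules pair a heavy chain with beta-2 microglobulin (B2m) and show peptides from inside the cell to CD8 T cells. Immunoproteasome subunits (Psmb8, Psmb9, Psmb10) cut the peptides, the Tap1 and Tap2 pump carries them into the endoplasmic reticulum, and tapasin (Tapbp) helps to load them. Class II molecules pair an alpha with a beta chain (H2-Aa with H2-Ab1 in the I-A molecule), are held by the invariant chain (Cd74), and exchange peptides with the help of H2-DM. Nearly every nucleated cell carries class I, whereas class II is typical of macrophages, dendritic cells and B cells and can be induced in epithelium. Nlrc5 is known as the transactivator of class I genes and Ciita as that of class II genes.

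Library totals ran from 45545182 to 64168308 counts. Erbb2 ran from 145 to 188 CPM (a gene's count relative to its TMM-scaled library total) in the groups without the HER2 allele and from 1499 to 4632 CPM in the groups with it, and Pik3ca from 61.4 to 85.7 against 91.6 to 122 CPM, as labelled. Keratins and other luminal epithelial markers summed to between 1685 and 4753 CPM, and basal markers to between 130 and 1329 CPM, so each culture held epithelial cells. HER2 replicate 1 was the lowest of all cultures for H2-Q1, H2-Q2, H2-Q4, H2-Q10, Psmb8, Psmb9, Psmb10, Tapbp, H2-DMb2 and 2 genes under 1 CPM (H2-T3 and H2-Oa), and the highest for H2-T23, H2-T24, H2-Eb1 and Ciita. Without it the same number of members, 4, was called in HER2 mutant against WT. A count of 3 in 1 library corresponds to between 0.0477 and 0.0668 CPM here, and values under that cannot be told from 0. Intervals and this floor cover counting error only.

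The promoters show short sequences that some of the class I genes have in common and where a class II gene differs. RefSeq promoter windows on GRCm38.p6 of 300 bases (250 before the start site, 50 from it on) were found for 37 of the 44 genes. No window was matched for the class II genes Cd74, Ciita and H2-Ab1 or for H2-Q1, H2-T24, Nlrc5 and Tap2. The promoters of these genes were not searched. Only the 250 bases before the RefSeq start site are printed here, 5′ to 3′ on the gene's strand. They are H2-K1 at chr17:34000348-34000597 (minus strand), H2-D1 at chr17:35262844-35263093 (plus), H2-Q6 at chr17:35424600-35424849 (plus), H2-T23 at chr17:36032702-36032951 (minus), B2m at chr2:122147437-122147686 (plus) and H2-Aa at chr17:34287824-34288073 (minus). Capitals mark every match on either strand to CCAAT, to GGGATTCCC (the core of a kappa B site) and to GAAANNGAA or GAANNGAAA (the core of an interferon-response element). The first 3 are classical or Qa heavy chains that varied together between cultures, H2-T23 is a heavy chain that did so less, B2m is their shared light chain, and H2-Aa is the class II chain that was called lower.
H2-K1: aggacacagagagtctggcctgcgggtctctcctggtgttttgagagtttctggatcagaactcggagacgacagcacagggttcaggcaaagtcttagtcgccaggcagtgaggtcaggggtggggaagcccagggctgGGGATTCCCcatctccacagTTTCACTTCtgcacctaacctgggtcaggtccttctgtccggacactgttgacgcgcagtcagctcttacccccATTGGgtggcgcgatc
H2-D1: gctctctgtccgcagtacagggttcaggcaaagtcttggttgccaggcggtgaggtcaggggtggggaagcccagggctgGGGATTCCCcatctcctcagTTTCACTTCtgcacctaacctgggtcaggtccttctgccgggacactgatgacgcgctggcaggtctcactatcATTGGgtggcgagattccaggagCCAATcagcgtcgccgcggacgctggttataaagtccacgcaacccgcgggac
H2-Q6: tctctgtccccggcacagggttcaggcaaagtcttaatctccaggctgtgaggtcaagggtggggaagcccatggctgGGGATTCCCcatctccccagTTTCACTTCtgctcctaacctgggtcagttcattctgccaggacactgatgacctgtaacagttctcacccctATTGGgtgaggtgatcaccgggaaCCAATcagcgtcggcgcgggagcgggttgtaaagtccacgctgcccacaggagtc
H2-T23: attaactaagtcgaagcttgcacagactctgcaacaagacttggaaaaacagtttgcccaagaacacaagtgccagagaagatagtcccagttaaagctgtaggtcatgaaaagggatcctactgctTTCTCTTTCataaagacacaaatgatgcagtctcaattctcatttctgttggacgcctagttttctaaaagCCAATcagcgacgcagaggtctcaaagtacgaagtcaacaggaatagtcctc
B2m: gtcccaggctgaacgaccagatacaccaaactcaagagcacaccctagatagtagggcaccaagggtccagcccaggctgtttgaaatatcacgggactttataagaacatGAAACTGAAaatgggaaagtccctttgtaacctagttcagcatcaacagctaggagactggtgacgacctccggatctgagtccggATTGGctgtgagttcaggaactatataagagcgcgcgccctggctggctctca
H2-Aa: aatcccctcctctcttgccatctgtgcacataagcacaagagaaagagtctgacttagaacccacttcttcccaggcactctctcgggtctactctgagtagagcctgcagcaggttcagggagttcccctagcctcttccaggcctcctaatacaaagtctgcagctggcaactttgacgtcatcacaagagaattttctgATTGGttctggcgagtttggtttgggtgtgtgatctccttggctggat

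H2-K1, H2-D1 and H2-Q6 carry the kappa B core and the interferon core in the same order, each followed by an inverted CCAAT (printed as ATTGG) and then a direct one, which in H2-K1 lies 8 bases into the window after the RefSeq start and outside the printed bases. B2m and H2-T23 carry the interferon core and 1 CCAAT, and H2-Aa only an inverted CCAAT. The windows of H2-K1 and H2-D1 shared 51 of 281 runs of 20 identical bases, and those of H2-Q6 and H2-Q7 shared 143 of 281. The kappa B core was found in 4 of 28 class I windows (14.3%; H2-K1, H2-D1, H2-Q6 and H2-Q7), in 0 of 8 class II windows, and in 0.353% of all 32851 windows of that length. The interferon core was found in 11 of 28 class I windows (39.3%), in 0 of 8 class II windows and in 14.8% of all windows. CCAAT, part of the Y box that both classes are known for, was found in 23 of 28 class I windows (82.1%), in 7 of 8 class II windows (87.5%) and in 37.4% of all windows. These are matches of letters, not sites shown to be bound, and the class I genes share sequence through duplication.

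Of the 44 genes, 33 passed the low-count filter and were tested: 24 of class I and 9 of class II. The other 11 (8 of class I, 2 of class II and H2-Ke6) never exceeded 15 counts in any library. The 8 class I genes among them are all H2-M genes. Levels between genes are compared here as CPM per kilobase of exon. On that scale the order over all 16 cultures began with B2m (mean 433), H2-D1 (188), H2-K1 (111), Tapbp (40.4), H2-T23 (35.0) and H2-Q4 (27.0), and the highest class II genes were H2-DMb1 (3.72), H2-Ab1 (2.27) and H2-DMb2 (1.81). H2-K1 and H2-D1 made up between 64.1% and 79.6% of the summed heavy chain level in each culture. The summed level of class I genes was between 35.4 and 179.5 times that of class II genes. That ratio was lowest in WT replicate 2 (35.4) and highest in HER2 replicate 3 (179.5), and it lay between 35.4 and 96.5 in WT, between 52.6 and 59.6 in PIK3CA mutant, between 63.1 and 179.5 in HER2 mutant and between 55.3 and 138 in double mutant cultures. The ranges of the groups overlapped, except that every HER2 mutant culture lay above every PIK3CA mutant culture.

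Among the heavy chains, H2-K1 and H2-D1, the classical chains of this locus, did not pass the test in any comparison. H2-K1 lies at chr17:33996017-34000347 and H2-D1 at chr17:35262730-35267499. H2-K1 read 403, 211 and 367 CPM in WT, 300.3, 232, 232 and 276 in PIK3CA mutant, 239, 333, 485 and 222 in HER2 mutant and 269.8, 281, 368, 316 and 666 in double mutant cultures. The 4 groups overlapped, with the highest value in double mutant replicate 5 and the lowest in WT replicate 2. H2-D1 read 745, 382 and 717 CPM in WT, 399, 312, 331 and 413 in PIK3CA mutant, 257, 654, 809 and 234 in HER2 mutant and 272, 352, 590.1, 404 and 865 in double mutant cultures. WT replicate 2 lay with the PIK3CA mutant cultures and the other WT cultures above them. The fitted log2 difference of H2-D1 from WT was -0.76 ± 0.43 (SE) in PIK3CA mutant (adjusted p = 0.406, edgeR), -0.33 ± 0.43 in HER2 mutant and -0.31 ± 0.41 in double mutant cultures. For H2-K1 the corresponding values were -0.33 ± 0.33, -0.03 ± 0.33 and 0.22 ± 0.31.

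The Qa heavy chains H2-Q6 and H2-Q7, which encode nonclassical class I molecules, spread most between cultures of the same genotype. H2-Q6 read 21.2, 4.86 and 14.6 CPM in WT, 9.21, 2.75, 2.303 and 6.38 in PIK3CA mutant, 12.5, 30.1, 44.4 and 3.69 in HER2 mutant and 2.46, 3.105, 15.4, 6.08 and 53.6 in double mutant cultures. H2-Q7 read 15.6, 5.603 and 10.9 CPM in WT, 6.901, 3.14, 2.33 and 9.38 in PIK3CA mutant, 15.97, 48.7, 66.9 and 3.54 in HER2 mutant and 2.52, 9.02, 23.4, 6.83 and 58.5 in double mutant cultures. Both were high in HER2 replicates 2 and 3 and double mutant replicate 5, and low in PIK3CA replicates 2 and 3, HER2 replicate 4 and double mutant replicate 1. The highest culture was 23.3 times the lowest for H2-Q6 and 28.8 times for H2-Q7. Their fitted log2 differences between HER2 and PIK3CA mutant cultures were 2.13 ± 0.93 and 2.63 ± 0.91 (adjusted p = 0.216 and 0.116, edgeR), and only the DESeq2 test placed H2-Q7 under the threshold (adjusted p = 0.0463). H2-Q6, H2-Q7 and other Qa and T genes are close copies of each other, and how reads that match several of them were counted is not given in the sources used here, so the division of counts among them is uncertain.

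Other heavy chains with a mean of at least 1 CPM were H2-Q1, H2-Q2, H2-Q4, H2-Q10, H2-T22, H2-T23, H2-T24 and H2-M3, and none of them passed the test in any comparison. Per comparison, between 0.672% and 11.8% of all genes were called. H2-T23, whose product Qa-1 is a ligand of the CD94/NKG2 receptors of NK cells, read 148, 82.9 and 102 CPM in WT, 85.5, 97.8, 93.3 and 93.4 in PIK3CA mutant, 176, 71.9, 100.2 and 85.5 in HER2 mutant and 82.9, 76.9, 88.2, 109 and 126 in double mutant cultures. HER2 replicate 1 was the highest of all, in contrast to its place in H2-Q1 and H2-Q10. H2-Q10 read 0.396, 4.24, 5.296 and 1.95 CPM in HER2 mutant cultures, where replicate 1 was lowest, and between 1.80 and 6.22 CPM in the other groups. H2-Q1 read 0.471, 3.24, 3.25 and 1.47 CPM in HER2 mutant cultures and between 1.68 and 4.47 CPM elsewhere. H2-M3, which presents formylated peptides, ran from 0.992 to 5.47 CPM, and the highest culture was 5.52 times the lowest. H2-Q4 ran from 32.6 to 145 CPM, H2-Q2 from 3.66 to 11.8 CPM, H2-T22 from 18.2 to 43.0 CPM and H2-T24 from 4.03 to 9.07 CPM. The remaining heavy chains tested, H2-M10.2, H2-M10.4 and H2-T3, were at 1.72 CPM or less in every culture and were not called.

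One class I heavy chain gene did change: H2-M2, a nonclassical gene of the H2-M region (chr17:37480851-37483552), was read almost only in WT. Its counts were 42, 24 and 43 in WT, 0, 0, 4 and 0 in PIK3CA mutant, 6, 1, 0 and 1 in HER2 mutant, and 2, 0, 0, 0 and 0 in double mutant cultures. No mutant culture overlapped WT, and 8 of the 13 were at 0. The fitted log2 difference from WT was -4.86 ± 1.1 in PIK3CA mutant (adjusted p = 0.0175, edgeR) and -3.95 ± 1.02 in HER2 mutant cultures (adjusted p = 0.0239). With 2 counts in the double mutant group, the ratio of WT to double mutant was 85.0, with a 95% counting interval of 22.97 to 711 (adjusted p = 0.00246). The call in double mutant cultures was kept in each alternative fit. That in PIK3CA mutant cultures was lost (adjusted p between 0.0559 and 0.0851) without WT replicate 1 or 3 or without PIK3CA replicate 1, 2 or 4, and that in HER2 mutant cultures without WT replicate 1 or 3 or HER2 replicate 3 (0.0518 to 0.0966).

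**Figure D1:**
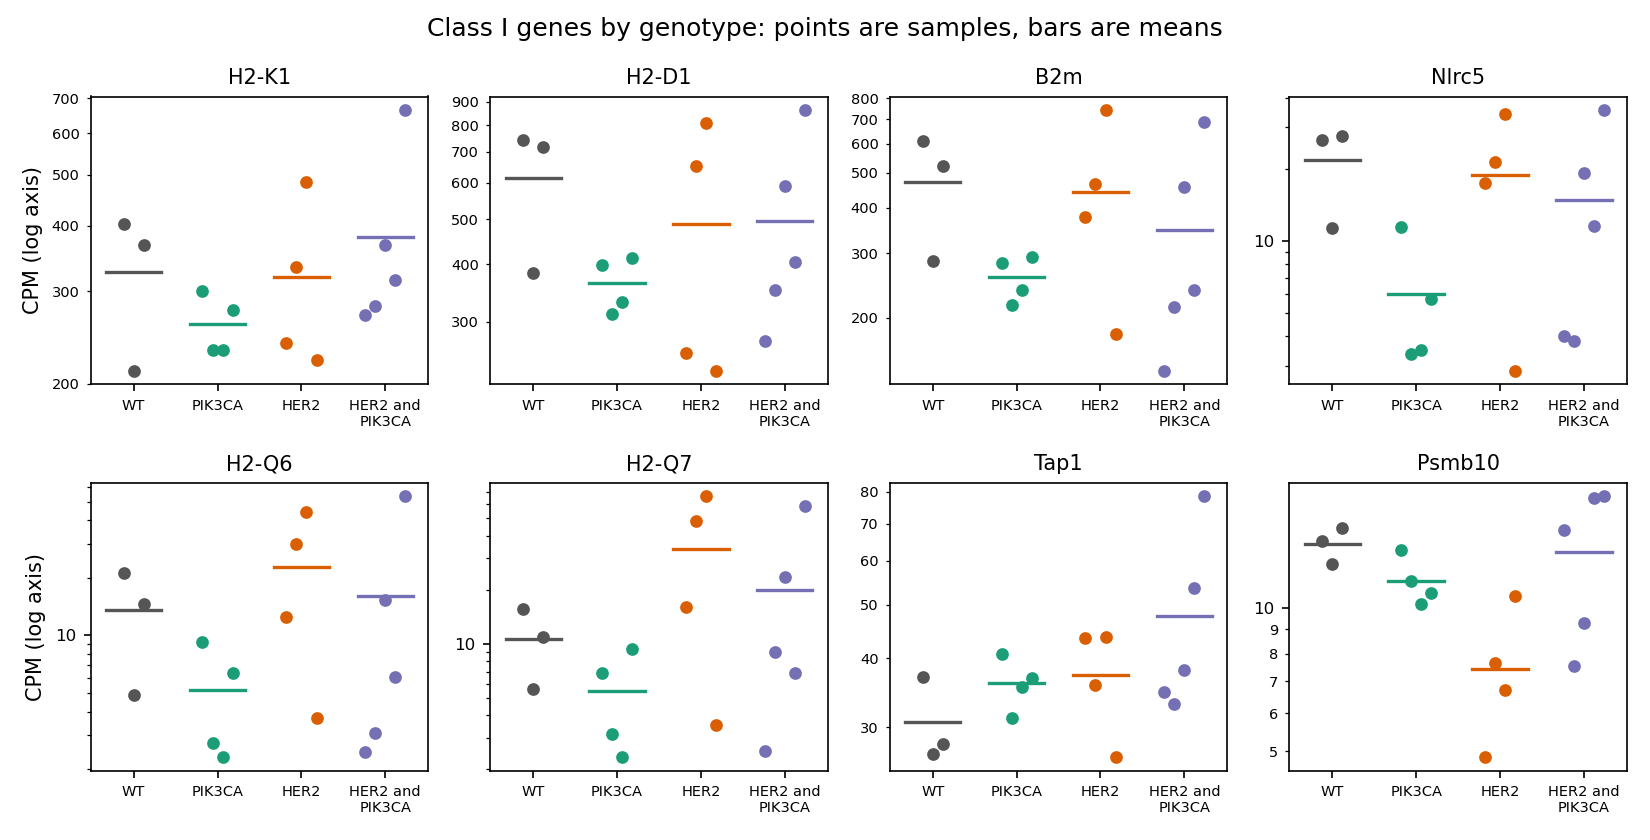
Scaled counts (CPM, log axis) of 8 class I genes in each of the 16 cultures, by genotype; points are cultures and bars are group means. H2-Q6, H2-Q7 and Nlrc5 spread most within a genotype, and double mutant replicate 5 is highest for H2-K1, H2-D1, H2-Q6, Nlrc5, Tap1 and Psmb10.

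Of the 8 genes of the class I machinery, 0 passed the test in any comparison. Between 0.672% and 11.8% of all genes were called per comparison, so 0 of 8 is near the share of all genes. B2m, the light chain (chr2:122147686-122153083), read 608, 286 and 522 CPM in WT, 283, 216, 239 and 293 in PIK3CA mutant, 378, 465, 744 and 181 in HER2 mutant and 143, 214, 456, 238 and 688 in double mutant cultures. Its highest culture, HER2 replicate 3, was 5.21 times its lowest, double mutant replicate 1. Nlrc5 (chr8:94434356-94527272) read 26.6, 11.4 and 27.7 CPM in WT, 11.4, 3.35, 3.499 and 5.73 in PIK3CA mutant, 17.6, 21.5, 34.2 and 2.85 in HER2 mutant and 4.01, 3.82, 19.3, 11.6 and 35.7 in double mutant cultures. Its lowest and highest cultures, HER2 replicate 4 and double mutant replicate 5, differed 12.5-fold, and the groups overlapped. PIK3CA mutant cultures had the lowest mean of both genes, at -0.87 ± 0.48 (B2m) and -1.87 ± 0.78 (Nlrc5) on the log2 scale against WT (adjusted p = 0.387 and 0.223, edgeR). When only the PIK3CA mutant and WT cultures were fitted, which sets the spread from those cultures alone, B2m, H2-D1 and Nlrc5 were called lower in PIK3CA mutant cultures (adjusted p = 0.0345, 0.0462 and 0.0272), and the count of genes called in that comparison rose from 3 to 7.

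The peptide pump and tapasin had narrower ranges. Tap1 read 36.97, 26.9 and 27.96 CPM in WT, 40.7, 31.1, 35.5 and 36.9 in PIK3CA mutant, 43.5, 35.8, 43.7 and 26.4 in HER2 mutant and 34.7, 33, 38.02, 53.6 and 78.6 in double mutant cultures, with double mutant replicate 5 well above the rest. Tap2 read 48.6, 30.3 and 36.7 CPM in WT, 35.8, 27.6, 31.5 and 27.5 in PIK3CA mutant, 36.04, 35.5, 33.1 and 46.3 in HER2 mutant and 33.9, 18.3, 32.8, 44.6 and 64.2 in double mutant cultures. Tapbp read 175, 127 and 143 CPM in WT, 142, 147, 146 and 153 in PIK3CA mutant, 109.5, 144, 157 and 111 in HER2 mutant and 128, 132, 172, 171 and 186 in double mutant cultures. The groups overlapped in each of the 3 genes, and the highest Tapbp culture was 1.70 times the lowest. The largest difference from WT among them was that of Tap1 in double mutant cultures, 0.64 ± 0.26 on the log2 scale (adjusted p = 0.128, edgeR).

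Of the immunoproteasome subunits, Psmb10 came closest to a difference by genotype. Psmb10 read 13.8, 12.3 and 14.7 CPM in WT, 13.2, 11.3, 10.2 and 10.8 in PIK3CA mutant, 4.85, 7.63, 6.72 and 10.6 in HER2 mutant and 14.6, 7.53, 9.27, 16.96 and 17.1 in double mutant cultures. Each HER2 mutant culture lay below each WT culture, whereas the double mutant group spanned both. The log2 difference was -0.87 ± 0.29 for HER2 mutant against WT (adjusted p = 0.0639, edgeR) and 0.81 ± 0.26 for double mutant against HER2 mutant (adjusted p = 0.0991). DESeq2 called both (adjusted p = 0.0358 and 0.0364), and so did edgeR without HER2 replicate 4 for the first (0.0282) and without double mutant replicate 2 for the second (0.0477). Psmb8 read 12.2, 7.08 and 9.03 CPM in WT, 9.68, 7.602, 8.46 and 8.04 in PIK3CA mutant, 3.45, 9.41, 11.2 and 3.85 in HER2 mutant and 8.404, 6.82, 8.11, 10.9 and 15.96 in double mutant cultures. Psmb9 read 10.7, 6.22 and 7.26 CPM in WT, 7.95, 6.32, 5.07 and 6.59 in PIK3CA mutant, 2.34, 7.61, 7.23 and 4.38 in HER2 mutant and 6.29, 4.85, 7.77, 8.79 and 14.1 in double mutant cultures. In both, HER2 replicate 1 was the lowest culture of all and double mutant replicate 5 the highest. Psmb9 and Tap1 overlap at their starts, B2m overlaps Patl2 and Tapbp overlaps Zbtb22, and whether strand was used in counting is not given in the sources used here, so reads in the overlaps cannot be assigned with certainty.

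Class II genes were low in all groups, and 2 of them, H2-Aa and Cd74, were lower in every mutant group than in WT. H2-Aa encodes the alpha chain of the I-A molecule (chr17:34282744-34287823). Its counts were 22, 143 and 52 in WT, 0 in all 4 PIK3CA mutant cultures, 6, 7, 5 and 0 in HER2 mutant cultures, and 0, 1, 1, 0 and 0 in double mutant cultures. No mutant culture reached the lowest WT culture. Against a floor of 3 counts per library, the PIK3CA mutant mean was at least 23.9-fold lower than that of WT (adjusted p = 0.00198, edgeR). The ratio of WT to double mutant was 169, with a 95% counting interval of 46.3 to 1406 (adjusted p = 0.000865), and that of WT to HER2 mutant was 14.3 (8.86 to 24.6; adjusted p = 0.0154). The HER2 call was lost without WT replicate 2, the culture with the most H2-Aa (adjusted p = 0.1), and when only HER2 mutant and WT cultures were fitted (0.0718). In bulk RNA, fewer cells of a type and less RNA per cell cannot be told apart, here or in the results that follow.

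The partner of H2-Aa did not follow it. H2-Ab1 encodes the beta chain of the I-A molecule (chr17:34257689-34269419) and read 5.09, 7.504 and 4.94 CPM in WT, 9.65, 6.07, 6.22 and 14.8 in PIK3CA mutant, 3.79, 3.16, 5.92 and 0.368 in HER2 mutant and 1.15, 3.54, 13.2, 2.05 and 5.72 in double mutant cultures. The PIK3CA mutant cultures, which had no H2-Aa read, thus held between 281 and 828 H2-Ab1 counts each, and 2 of them exceeded every WT culture. HER2 replicate 4 was the lowest, with 18 counts. The log2 difference of H2-Ab1 from WT was 0.65 ± 0.75 in PIK3CA mutant (adjusted p = 0.735, edgeR), -0.82 ± 0.74 in HER2 mutant (0.527) and -0.18 ± 0.71 in double mutant cultures (0.897). Each HER2 mutant culture lay below each PIK3CA mutant culture, with a log2 difference of -1.47 ± 0.71 (adjusted p = 0.268). Per kilobase, H2-Ab1 made up between 73.3% and 84.9% of the summed class II chain level in WT and between 96.6% and 100% in PIK3CA mutant cultures. Whether the 2 chains differ in their change was not tested.

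The beta chains of the I-E molecule, H2-Eb1 and H2-Eb2, were low. H2-Eb1 read 0.489, 0.6003 and 0.834 CPM in WT, 0.254, 0, 0.155 and 0.214 in PIK3CA mutant, 1.32, 0.212, 0.245 and 0.4503 in HER2 mutant and 0.496, 0.0839, 0.0982, 0.222 and 0.408 in double mutant cultures. Each PIK3CA mutant culture lay below each WT culture, at a log2 difference of -2.0 ± 0.82 that did not pass the test (adjusted p = 0.218, edgeR), and HER2 replicate 1 was the highest of all cultures. H2-Eb2 had at most 1 count in any culture.

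Cd74 encodes the invariant chain that holds class II molecules until they are loaded. It read 1.56, 9.93 and 4.27 CPM in WT, 0.413, 0.661, 0.376 and 0.679 in PIK3CA mutant, 1.11, 1.29, 0.423 and 0.532 in HER2 mutant and 0.337, 0.4196, 0.609, 0.591 and 0.7 in double mutant cultures. WT replicate 2 was highest, as for H2-Aa, and every mutant culture was below the lowest WT culture. The log2 difference from WT was -3.29 ± 0.54 in PIK3CA mutant (adjusted p = 0.00215, edgeR), -2.64 ± 0.52 in HER2 mutant (0.00604) and -3.30 ± 0.49 in double mutant cultures (0.00062). Across the alternative fits the call was lost once, for HER2 mutant when only those and WT cultures were fitted (0.0797). Among the mutant groups Cd74 was not called different, with log2 differences between -0.66 and 0.66.

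H2-DMa, a chain of the peptide exchange factor H2-DM, was lower in HER2 mutant cultures. It read 7.46, 5.46 and 8.29 CPM in WT, 4.45, 4.94, 3.61 and 3.98 in PIK3CA mutant, 4.38, 3.95, 3.27 and 3.77 in HER2 mutant and 4.64, 5.22, 5.69, 3.49 and 5.15 in double mutant cultures. All HER2 and PIK3CA mutant cultures lay below WT, while 1 double mutant culture overlapped it. The log2 difference was -0.88 ± 0.21 in HER2 mutant cultures (adjusted p = 0.0179, edgeR), and it was not called without WT replicate 1 (0.0697) or WT replicate 3 (0.11). In PIK3CA mutant cultures it was called by DESeq2 (0.0157) and by edgeR without WT replicate 2 (0.0411). H2-DMa overlaps Brd2, with the same limit on reads in the overlap.

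The other accessory genes passed no test, where between 0.672% and 11.8% of all genes were called per comparison. H2-DMb1, a beta chain of H2-DM, read 8.79, 7.95 and 6.47 CPM in WT, 7.903, 6.26, 9.17 and 5.57 in PIK3CA mutant, 3.15, 4.53, 5.56 and 6.202 in HER2 mutant and 6.35, 2.54, 7.42, 3.94 and 8.36 in double mutant cultures. H2-DMb2, its near copy, read 0.132, 3.45, 2.38 and 3.27 CPM in HER2 mutant cultures, where replicate 1 had 7 counts, and between 1.41 and 4.74 CPM in the other groups. Ciita (chr16:10480059-10528418) read 3.46, 2.902 and 3.79 CPM in WT, 3.08, 3.04, 3.01 and 2.501 in PIK3CA mutant, 4.22, 2.49, 2.07 and 4.03 in HER2 mutant and 2.996, 1.72, 2.08, 2.77 and 2.897 in double mutant cultures. Its log2 difference from WT was -0.22 ± 0.27, -0.08 ± 0.28 and -0.44 ± 0.26 in the 3 mutant groups. The groups overlapped for Ciita, which lies across part of Dexi. Every HER2 mutant culture lay below every WT culture for H2-DMb1 and H2-DMb2, at log2 differences of -0.67 ± 0.35 and -0.87 ± 0.62 that did not pass the test (adjusted p = 0.238 and 0.407, edgeR). H2-Oa, a modulator of H2-DM and the last class II gene tested, had 16 counts or fewer in every culture and was not called.

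**Figure D2:**
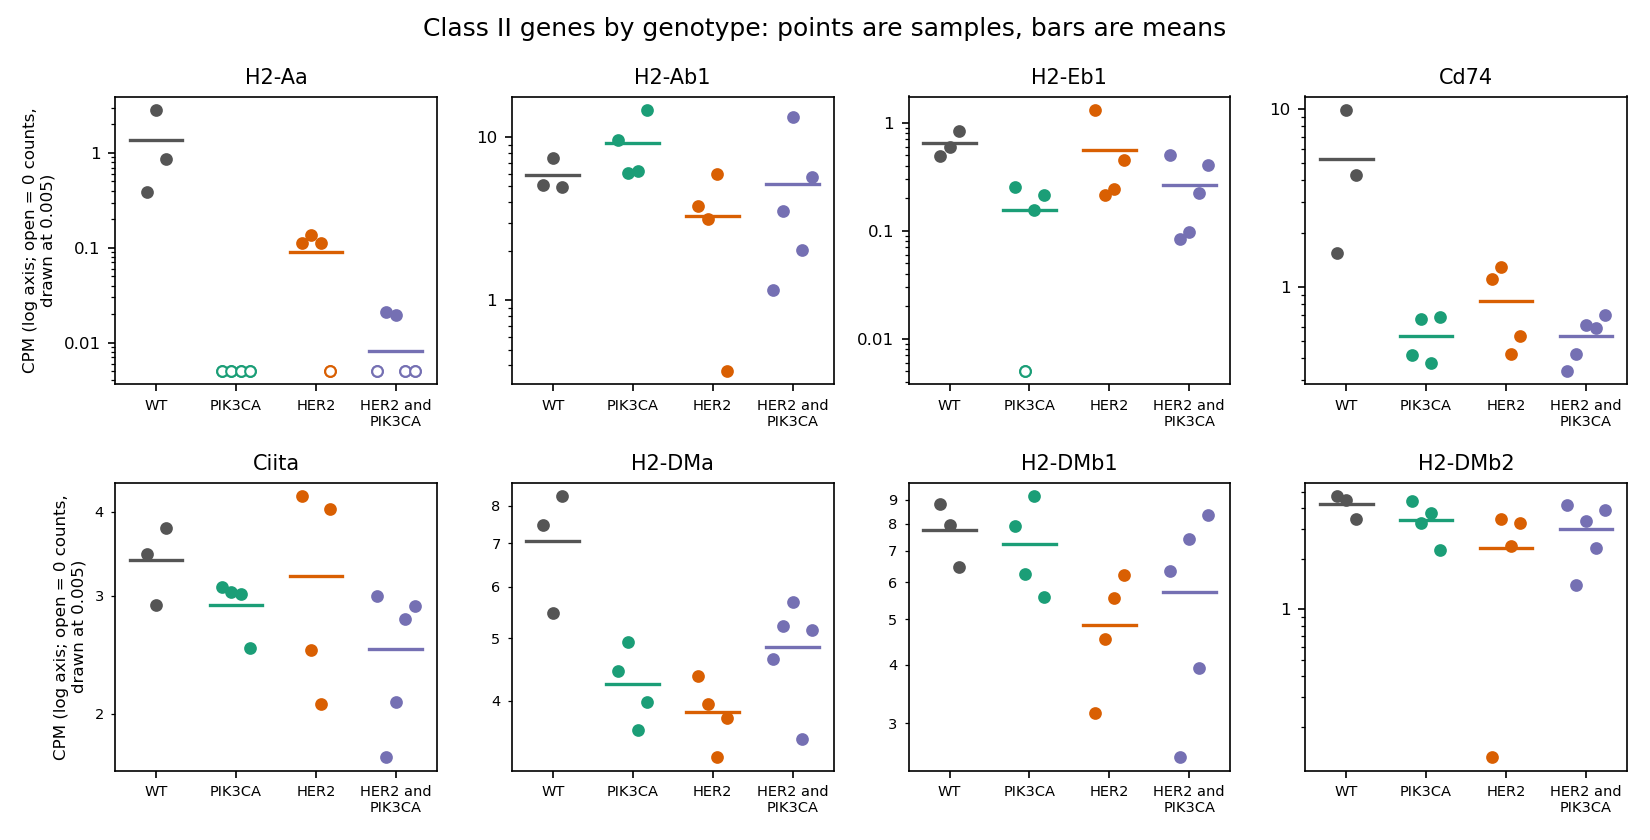
Scaled counts (CPM, log axis) of 8 class II genes in each culture, by genotype; points are cultures, bars are group means and open points are cultures with 0 counts, drawn at 0.005. H2-Aa is at 0 in all 4 PIK3CA mutant cultures, where H2-Ab1 runs from 6.07 to 14.8 CPM, and Cd74 is lower in all 13 mutant cultures than in WT.

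Counted together, all 10 calls among the 198 pairs of a tested gene and a comparison were lower levels in a mutant group than in WT, in 4 genes. In PIK3CA mutant against WT, 0 genes were called higher and 3 lower of 33 (Cd74, H2-Aa and H2-M2), while 4.52% of the 24252 genes tested were called. In HER2 mutant against WT, 0 were higher and 4 lower (the same 3 genes and H2-DMa), with 10.4% of all genes called. That count of 4 fell to 2 without WT replicate 1 or without WT replicate 3, and to 0 when only HER2 mutant and WT cultures were fitted (adjusted p between 0.0504 and 0.0956 for the 4 genes). In double mutant against WT, 0 were higher and 3 lower (Cd74, H2-Aa and H2-M2), with 11.8% of all genes called. A count of 3 or 4 of 33 is thus about the share of all genes in the HER2 and double mutant comparisons. The same WT cultures enter these 3 comparisons, so the repeated calls are not independent.

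By class, 1 of 24 class I genes was called in each comparison with WT (4.17%). Of 9 class II genes, 2, 3 and 2 were called in PIK3CA, HER2 and double mutant cultures (22.2%, 33.3% and 22.2%). The shares of all genes called were 4.52%, 10.4% and 11.8%. The median log2 difference from WT over tested class II genes was -0.35 in PIK3CA mutant, -0.87 in HER2 mutant and -0.48 in double mutant cultures. For class I genes it was -0.33, -0.11 and 0.06, and for all genes tested -0.03, 0.03 and 0.01. The class II median in PIK3CA mutant cultures was the same, -0.35, with H2-Aa set at its bound. The estimates of 8, 9 and 9 of 9 class II genes and of 20, 17 and 10 of 24 class I genes were below 0 in the 3 comparisons. These medians are descriptions of the lists, and the difference between the classes was not tested.

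**Figure D3:**
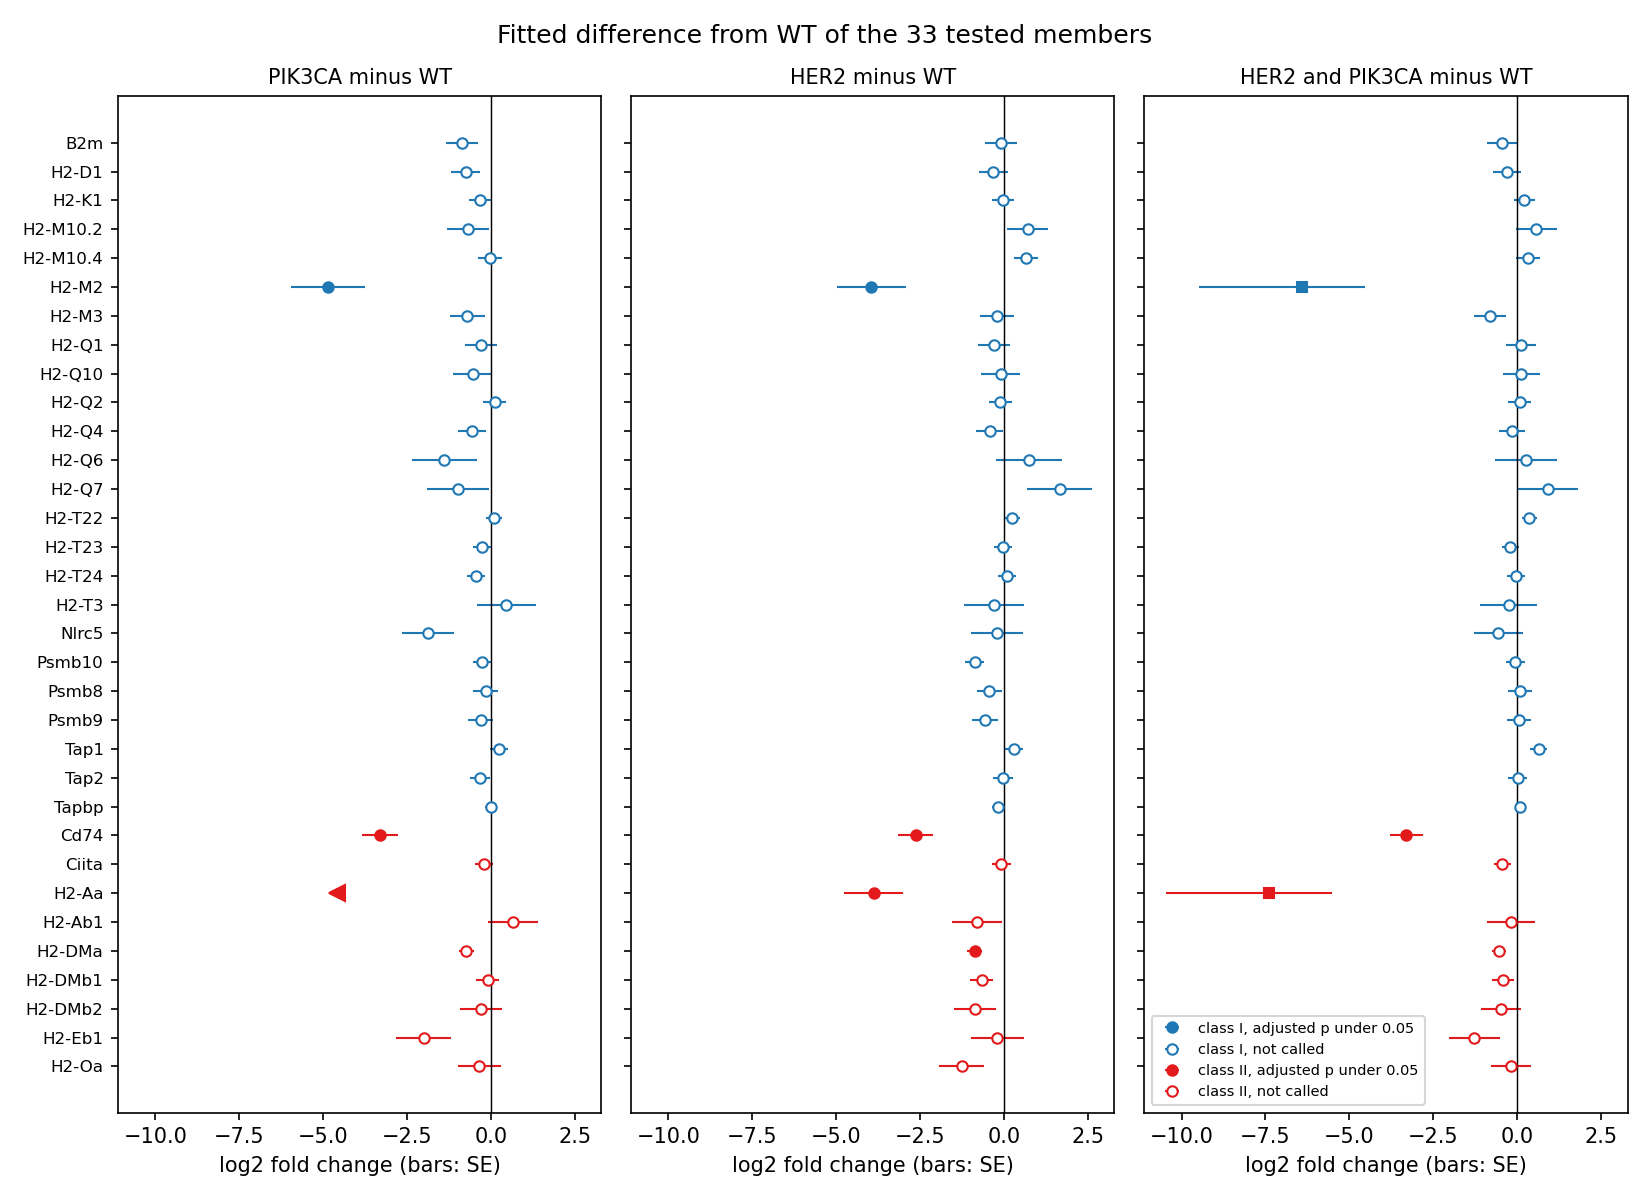
Log2 difference from WT of the 33 tested genes in each mutant group, class I in blue and class II in red; bars are SE, and filled symbols have an adjusted p under 0.05. Circles are fitted values; the triangle is the bound for H2-Aa in PIK3CA mutant cultures (0 counts), and squares are ratios with 95% counting intervals where the mutant group had 2 counts. The filled symbols are all left of 0, and the class I genes other than H2-M2 lie within 1.87 of it.

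Between the mutant groups no member was called by edgeR. In double mutant against HER2 mutant cultures, 0 of 33 were called, 2 had an unadjusted p under 0.05, DESeq2 called 1 (Psmb10), and 2.5% of all genes were called. In the same comparison 8 of 15 macrophage markers were lower in double mutant cultures. In double mutant against PIK3CA mutant cultures, 0 were called, 2 had an unadjusted p under 0.05, DESeq2 called 0, and 0.672% of all genes were called. In HER2 mutant against PIK3CA mutant cultures, 0 were called, 7 had an unadjusted p under 0.05, DESeq2 called 2 (H2-Aa and H2-Q7), and 4.41% of all genes were called. Without HER2 replicate 4, in which H2-Aa was at 0, edgeR called H2-Aa higher in HER2 mutant than in PIK3CA mutant cultures (adjusted p = 0.0311, against 0.067 with it).

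The spread of class I genes within a genotype was wide beside that of other genes. The SD of log2(CPM + 0.5) around the genotype means had a median of 0.51 over the 20 class I genes with a mean of at least 1 CPM, 0.51 over the 6 such class II genes and 0.31 over all 16043 such tested genes. It reached 1.39 in H2-Q6, 1.42 in H2-Q7, 1.17 in Nlrc5 and 0.72 in B2m.

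Several class I genes varied with Nlrc5 from culture to culture. Deviations from the genotype means were correlated over the 16 cultures for every tested class I gene with a mean of at least 1 CPM against Nlrc5 (19 genes) and every such class II gene against Ciita (5 genes). The p-values came from 100000 permutations within genotypes and were adjusted over the 24 relations. The relation was noticed in these data before it was tested on them, so the p-values are not independent evidence of it. By Pearson's r, 11 of 19 class I genes had an adjusted p under 0.05, and by Spearman's rho 13 of 19.

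H2-Q6 had an r of 0.955 with Nlrc5 (permutation p = 3e-05, adjusted p = 0.00036) and a rho of 0.959 (3e-05, adjusted 0.00036). B2m had an r of 0.926 (6e-05, adjusted 0.00036) and a rho of 0.909 (0.00021, adjusted 0.0013). For H2-D1, r was 0.844 (5e-05, adjusted 0.00036) and rho 0.859 (0.00021, adjusted 0.0013), and for H2-K1, r was 0.843 (3e-05, adjusted 0.00036) and rho 0.862 (3e-05, adjusted 0.00036). Without HER2 replicate 4 and double mutant replicate 2, the cultures farthest from the Nlrc5 median, r was 0.952 for H2-Q6, 0.919 for B2m, 0.825 for H2-D1 and 0.853 for H2-K1.

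H2-Q2, H2-T23, H2-T24, Tap2 and Psmb10 passed by neither measure. Psmb10 had an r of 0.046 (permutation p = 0.9, adjusted p = 0.91) and a rho of 0.094 (0.78, adjusted 0.87), and H2-T23 an r of 0.387 (0.26, adjusted 0.34) and a rho of 0.312 (0.3, adjusted 0.39). H2-T22 passed by Pearson alone (adjusted p = 0.041, against 0.11 by Spearman), with an r of 0.673 that was 0.530 without those 2 cultures. H2-Q1, H2-Q10 and Psmb9, in which HER2 replicate 1 was lowest, passed by Spearman alone (adjusted p = 0.015, 0.011 and 0.016). None of the 5 class II genes passed with Ciita, where H2-Ab1 had an r of -0.560 (permutation p = 0.1, adjusted p = 0.18) and a rho of -0.503 (0.12, adjusted 0.17). The relations share libraries and scaling factors, and the labels name no batch within which to repeat them. How reads were divided among close copies such as H2-Q6 and H2-Q7 is uncertain, so the relations counted are not independent.

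Beside these values, the r of every other tested gene with a mean of at least 1 CPM was taken with Nlrc5 in the same way. The median r over 16042 genes was -0.003. An r of at least 0.8 was found for 29 genes (0.181%), of which 6 were among the 19 class I genes, and an r of at least 0.9 for 2 genes, H2-Q6 and B2m. After these came Cnnm4 (0.899), H2-Q7 (0.895) and Zscan20 (0.877).

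**Figure D4:**
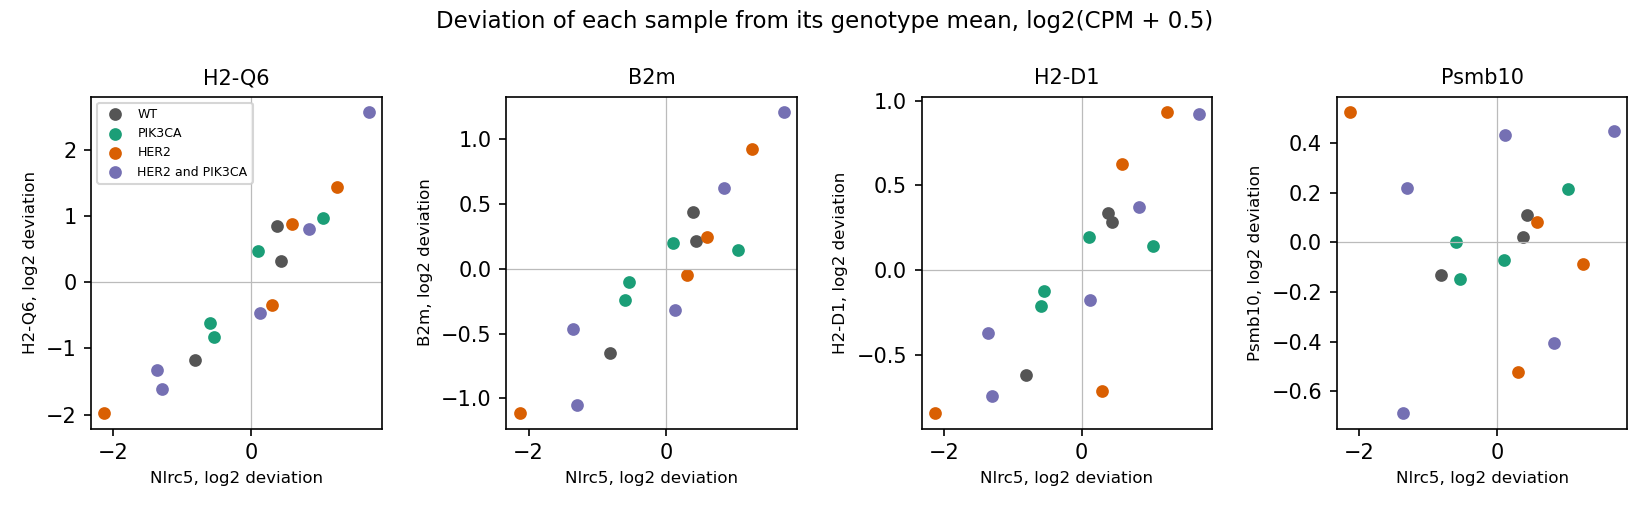
Deviation of each culture from its genotype mean, in log2(CPM + 0.5), for Nlrc5 (horizontal) against H2-Q6, B2m, H2-D1 and Psmb10 (vertical); points are the 16 cultures, coloured by genotype. The points rise together in the first 3 panels (r = 0.955, 0.926 and 0.844) and show no trend for Psmb10 (r = 0.046).

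The wider pathway was read through 51 genes of antigen presentation that are not members, of which 48 were tested. In PIK3CA, HER2 and double mutant against WT, 0, 1 and 4 of them were called higher and 7, 10 and 9 lower. Of all genes tested, 4.52%, 10.4% and 11.8% were called in these comparisons, in either direction. Of the 8 endoplasmic reticulum and trimming genes, 0, 1 and 3 rose and none was called lower. Hspa5, the reticulum chaperone BiP, read 249, 271 and 293 CPM in WT, 777, 374, 596 and 741 in HER2 mutant and 816, 965, 664, 590.0 and 933 in double mutant cultures, a log2 difference from WT of 1.20 ± 0.23 (adjusted p = 0.00533, edgeR) and 1.55 ± 0.23 (0.000571). Calr and Canx, the lectin chaperones calreticulin and calnexin, rose in double mutant cultures by 0.70 ± 0.15 (0.00535) and 0.43 ± 0.12 (0.035). The 3 constitutive proteasome subunits (Psmb5, Psmb6 and Psmb7) were called in no comparison.

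Among the class II processing genes, 2, 3 and 2 of 7 were called lower in PIK3CA, HER2 and double mutant cultures. The shares of all genes called were 4.52%, 10.4% and 11.8%. Ctss, the cathepsin that trims the invariant chain in macrophages and dendritic cells, read 208, 84.97 and 409 CPM in WT, 0.382, 0.0826, 2.94 and 0.661 in PIK3CA mutant, 23.6, 12.97, 0.267 and 0.0205 in HER2 mutant and 0.0355, 0.147, 0.0196, 0.0924 and 0.233 in double mutant cultures. HER2 replicates 1 and 2 stood between WT and the other mutant cultures, and Ctss was called lower than in WT in all 3 groups (adjusted p = 0.00615, 0.033 and 0.000511, edgeR). Marchf1, a ligase that removes class II from the surface, was called lower in all 3 groups, with log2 differences of -3.05 ± 0.57, -2.29 ± 0.55 and -2.78 ± 0.52 (adjusted p = 0.00535, 0.0171 and 0.00279, edgeR). Ctsl, another cathepsin, was lower in HER2 mutant cultures, at -0.78 ± 0.22 (0.0325). Of the 14 transcription factors, Spi1 (PU.1, of myeloid cells) was lower in all 3 groups, at -7.13 ± 0.99, -4.10 ± 0.85 and -7.39 ± 0.92. Irf8, also of myeloid cells, was lower in PIK3CA (-5.50 ± 1.05) and double mutant cultures (-5.86 ± 0.98), while Rfx5, Rfxap, Rfxank and the Nfy genes were not called. Socs1, a brake on interferon signals, was lower in PIK3CA (-1.04 ± 0.22, adjusted p = 0.0112, edgeR) and HER2 mutant cultures (-1.01 ± 0.22, 0.00971) than in WT. Ptpn2, a phosphatase of the same pathway, was higher in double mutant cultures than in WT (0.65 ± 0.15) and than in HER2 mutant cultures (0.58 ± 0.13). Ifngr2, a chain of the interferon gamma receptor, was lower in HER2 than in PIK3CA mutant cultures (-0.80 ± 0.21).

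Of the costimulatory genes, 2, 2 and 3 of 5 tested were called lower in PIK3CA, HER2 and double mutant cultures. Of the other presenting genes 0, 3 and 2 of 5 were, beside 4.52%, 10.4% and 11.8% of all genes called. Cd86, a ligand of CD28, was lower in all 3 mutant groups, at -5.32 ± 1.05, -3.46 ± 0.91 and -4.10 ± 0.87 (adjusted p = 0.00725, 0.0258 and 0.00622, edgeR). Its counts were 33, 28 and 82 in WT and 2, 2, 0 and 0 in PIK3CA mutant cultures. They were 5, 9, 0 and 1 in HER2 mutant and 1, 2, 4, 0 and 5 in double mutant cultures. Counts under 3 cannot be told from 0, so the size of these differences is uncertain. Cd80, the other ligand of CD28, was lower in PIK3CA (-2.30 ± 0.49, 0.0126) and double mutant cultures (-2.39 ± 0.46, 0.00327). Cd274, which encodes PD-L1, was lower in HER2 (-1.83 ± 0.52, 0.036) and double mutant cultures (-2.49 ± 0.49, 0.00381). Fcgrt, the neonatal Fc receptor that pairs with B2m, read 19.02, 21.01 and 24.2 CPM in WT, 14.2, 15.6, 18.8 and 12.7 in PIK3CA mutant, 5.24, 4.38, 3.29 and 6.43 in HER2 mutant and 10.1, 2.37, 4.65, 6.54 and 5.74 in double mutant cultures. Every culture of the 3 mutant groups lay below every WT culture. The log2 difference was -2.15 ± 0.35 (0.0021) in HER2 mutant and -1.86 ± 0.32 (0.00162) in double mutant cultures, and Fcgrt was not called in PIK3CA mutant cultures. Mr1, which presents vitamin metabolites, fell by 0.54 on the log2 scale in both HER2 and double mutant cultures (0.0169 and 0.0103). Hfe, a regulator of iron uptake, was lower in HER2 mutant cultures (-1.95 ± 0.49, 0.0219).

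Many macrophage markers were called lower in the mutant groups than in WT, as H2-Aa and Cd74 were, while H2-Ab1 was not. Of 15 macrophage markers, 13, 10 and 13 were called lower in PIK3CA, HER2 and double mutant cultures than in WT. In the same comparisons 4.52%, 10.4% and 11.8% of all genes were called. Cd14 and Cd68 were present in every culture, with lowest values of 123 and 7.78 CPM. Cd14 was not lower in PIK3CA mutant cultures (600, 752, 676 and 573 CPM) than in WT (600, 528 and 491 CPM). It ran from 123 to 403 CPM in HER2 and double mutant cultures. The other 13 markers summed to 1451, 525 and 3379 CPM in WT, to between 3.26 and 13.7 CPM in PIK3CA mutant, to 210, 73.9, 4.16 and 2.17 CPM in HER2 mutant and to between 2.59 and 4.34 CPM in double mutant cultures. Lyz2 alone made up 1109, 404 and 2649 CPM of the WT sums. Of these 13 markers, Csf1r, Aif1 and Fcer1g also stayed above 3 counts in every culture. Csf1r ran from 1.105 to 9.675 CPM in the mutant cultures, against 12.47 to 79.79 CPM in WT. Aif1 lay within the WT range (0.4803 to 1.084 CPM) in HER2 replicates 2 and 3 and double mutant replicate 3. It read 0.9445, 0.6231 and 1.08 CPM there, and lay below WT in every other mutant culture. No macrophage marker was at 0 in all cultures of a group, and 11 of 15 stayed under 1 CPM in all PIK3CA and in all double mutant cultures. Within WT the order differed: replicate 2 had the lowest macrophage sum and the highest H2-Aa and Cd74. Leaving out HER2 replicates 1 and 2 together, a fit added after the data were seen, kept the count of members called against WT at 4. The part of macrophage RNA in the class II calls was not tested.

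Markers of other class II cells were scarce. Of 7 dendritic cell markers, 5 stayed under 1 CPM in all WT cultures (Siglech at 0), and the rest were Itgax, also an integrin of macrophages (4.66 to 22.7 CPM in WT), and Zbtb46 (4.03 to 10.5 CPM over all cultures). All 5 B cell markers stayed under 1 CPM in all 16 cultures, with sums of 0.542 to 0.934 CPM in WT and 0.157 to 0.486 CPM in the mutant groups. The 7 T and NK cell markers summed to 2.22 CPM at most. Of the 2 tested, Cd4 was called lower in HER2 and double mutant cultures than in WT, where 10.4% and 11.8% of all genes were called. Cd4 had 72, 8 and 25 counts in WT, and WT replicate 2 (0.160 CPM) lay within the HER2 mutant range (0.0964 to 0.189 CPM). The 3 endothelial markers summed to between 1.68 and 4.15 CPM in WT and to 1.45 CPM at most in the mutant groups. Fibroblast markers summed to between 288 and 1586 CPM in WT, with the highest sum in replicate 2, and to 442, 584 and 57.8 CPM at most in PIK3CA, HER2 and double mutant cultures. In these groups 0, 1 and 4 of 5 fibroblast markers, and 0, 0 and 2 of 2 endothelial markers tested, were called lower than in WT. Of all genes, 4.52%, 10.4% and 11.8% were called. The part of these cells in the result was not tested.

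**Figure D5:**
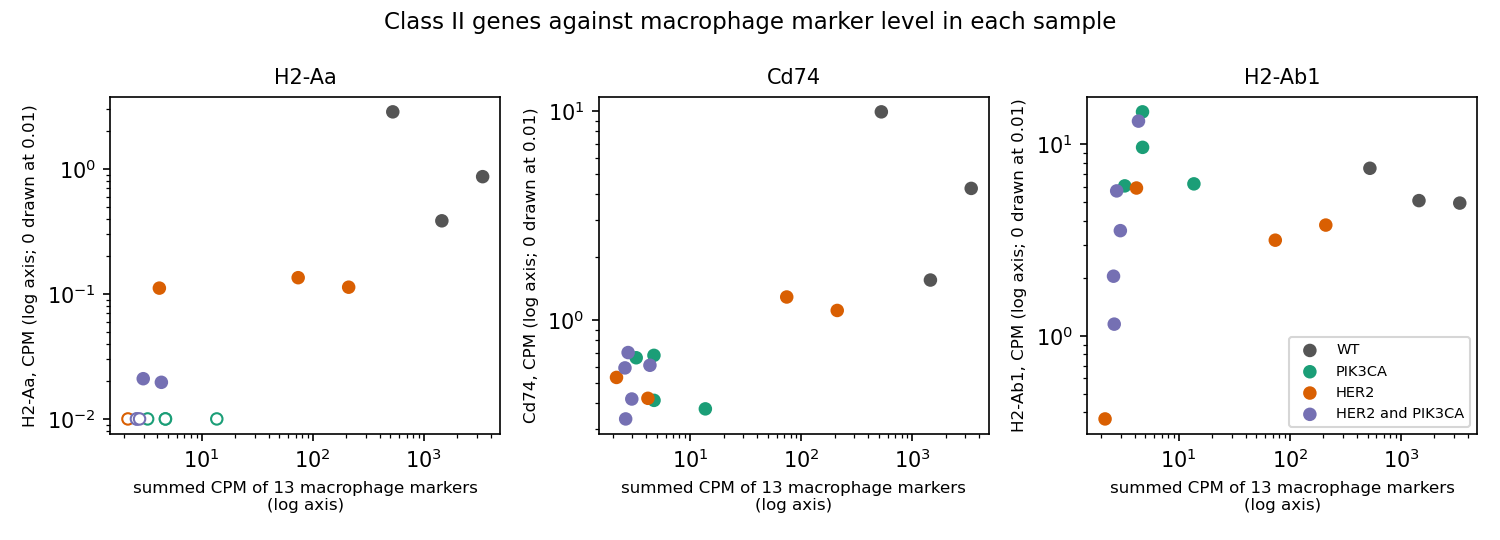
H2-Aa, Cd74 and H2-Ab1 (CPM, log axis; cultures with 0 counts are open and drawn at 0.01) against the summed CPM of 13 macrophage markers (log axis), 1 point per culture. WT cultures lie at the right with the highest H2-Aa and Cd74, while H2-Ab1 reaches 14.8 CPM in cultures with a low sum of these markers. Lyz2 makes up most of the sum in WT.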

How the data were processed

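RNA of 16 organoid cultures was sequenced with an mRNA library kit, per the labels' protocols. The authors deposited whole-number read counts per gene for all samples in 1 table. They also deposited a normalized signal table, which equals those counts divided by 1 factor per sample. The submitters' processing notes name bcl2fastq 2.20, STAR 2.0.4b, Subread, featureCounts 1.4.5, DESeq2 1.33.5 and the mm10 build, without order or role. Strand setting and treatment of reads matching several genes are not given in the sources used here, so values of near-identical H2 genes and of overlapping genes are uncertain.

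After removal of 287 identical repeated entries, 55487 genes remained, with 45545182 to 64168308 counts per sample. Counts were tested with edgeR 4.0.16 (quasi-likelihood test, TMM scaling, filterByExpr, 24252 genes kept) in R 4.3.3, with 1 fit of all samples and Benjamini-Hochberg adjustment over all genes. A gene was called at an adjusted p under 0.05. CPM used the TMM library sizes, and the spread and correlations used log2(CPM + 0.5). The tests were tried on simulated counts first. Alternatives were other scalings, no filter, DESeq2 1.42.0, limma 3.58.1 on log2(normalized value + 1), a replicate block, only the genotypes compared, and each sample left out.

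The members and gene lists were chosen with earlier results of these data known. Values in every sample were given for 17 core genes. Other members were named when called at least once, when their mean was at least 1 CPM, or when 1 genotype's mean was at least 4 times each other's. Members outside that rule are named only to account for them. Pathway genes were named when called, at most 5 per list. Lengths and positions came from GENCODE on GRCm38 and promoter sequences from RefSeq GRCm38.p6. The pathway lists covered endoplasmic reticulum loading, the constitutive proteasome, class II processing, transcription factors, interferon gamma signalling, other presenting molecules and costimulation.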

Additional observations from a re-analysis of the deposited data

Results flagged for a closer look

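In 4 of the 99 gene and genotype groups examined (4.04%), 1 culture lay far from the others of its group by Dixon's criterion. Chance meets it in about 1 group in 20, a rate that does not hold where most values are 0. Ciita was at 2.50 CPM in PIK3CA replicate 4, below the 3.01 to 3.09 CPM of the other PIK3CA mutant cultures. H2-Aa was at 0 in HER2 replicate 4, against 0.111 to 0.135 CPM in the other HER2 mutant cultures. H2-M2 was at 0.0886 CPM (4 counts) in PIK3CA replicate 3 and at 0.0355 CPM (2 counts) in double mutant replicate 1, while the other cultures of both groups were at 0. With all others at 0 any count meets the criterion, and 2 counts cannot be told from 0.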

How the results depend on the processing

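Of 3051 pairs of a gene's result and an alternative, 3019 kept their direction and their side of the threshold, 18 were no longer called, 14 became called and 0 changed direction. The 3 calls in double mutant against WT were kept in every alternative run. When only the genotypes compared were fitted, the number of genes called was 7 in PIK3CA mutant against WT and 0 in HER2 mutant against WT. DESeq2 called 1 gene in double mutant against HER2 mutant and 2 in HER2 mutant against PIK3CA mutant. With 1 sample left out in turn, the number called ran from 2 to 5 in HER2 mutant against WT, from 0 to 1 in double mutant against HER2 mutant and from 0 to 1 in HER2 mutant against PIK3CA mutant. The cause of these changes was not tested.

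Replicate numbers did not pair the samples. The correlation of deviations from the genotype means had a mean of 0.0276 in the 21 pairs of samples with the same number (from -0.28 to 0.385) and of -0.00844 in the 74 other pairs. A replicate block left 2 genes called in PIK3CA mutant, 3 in HER2 mutant (Cd74, H2-Aa and Psmb10) and 3 in double mutant against WT, and 0 between mutant groups. Counts under 3 in a library cannot be told from 0, which limits H2-Aa and H2-M2 in the mutant groups.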

Other observations

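The table also held 11 H2-named entries that the deposited annotation does not class as protein-coding, and several were as high as coding members. H2-K2 ran from 2.92 to 18.1 CPM, H2-T-ps from 5.92 to 16.4 CPM and H2-T10 from 3.58 to 15.1 CPM over the 16 cultures. H2-Q5 ran from 0.319 to 6.26 CPM, with means of 0.870 in PIK3CA mutant, 1.56 in WT, 2.53 in double mutant and 3.38 in HER2 mutant cultures. H2-Ea, the alpha chain partner of H2-Eb1, had 4 counts in WT replicate 3 and 0 in the other 15 cultures.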
